A study of Mus musculus with 8 samples.

Results

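Prostatic intraepithelial neoplasia (PIN) is the early lesion in which the epithelial cells that line the prostatic glands become atypical and crowd the gland before any invasion. The results below compare 3 libraries of mouse prostate with PIN with 3 libraries of WT control prostate, across all genes. They were chosen by their sample labels and make up 6 of the 8 bulk RNA libraries of the series, and the tumor libraries were left out. Per the study's text, the PIN mice carried a floxed human transgene at the Rosa26 locus, beside an mTmG reporter on the other allele, and an Osr1 Cre allele that turns the transgene on in cells that express or once expressed *Osr1*. The sources used here disagree on the controls, which the labels call WT-control, the study's text describes as WT mice matched in sex and age, and a legend gives as R26 mTmG/+:Osr1 Cre/+ mice. The mice were kept on a mixed background of C57BL/6 and 129S1/SvImJ, and the age of the animals behind these libraries was not found in the sources. Nothing in the labels says whether the libraries of a group came from separate animals, so the p-values measure only the spread between these samples. The PIN tissue was checked under the microscope and consisted mostly of atypical cells per the study, and the labels name no prostate lobe.

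The prostate epithelium consists of luminal cells, which secrete seminal fluid proteins under the control of androgens, basal cells beneath them, and rarer progenitor cells near the ducts. Androgens drive genes such as *Pbsn* and *Fkbp5* in these cells. IGF1 made by the stroma and Wnt ligands that act through β-catenin are growth signals that reach the same epithelium. The values below are raw read counts of the authors, given as CPM, the counts of a gene over the total counts of its library on a fixed scale, after scaling by the trimmed mean of M-values (TMM) in edgeR. Bulk values are means over all cells in the tissue, so that fewer cells of a type and less RNA per cell cannot be told apart.

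Total counts ran from 21751803 to 29730420 in WT and from 27421827 to 28517421 in PIN. The prostate products *9530053A07Rik*, *Tgm4* and *Pbsn* were present in all 6 libraries, and *9530053A07Rik* alone made up between 13.1% and 22.1% of each library. Its level lay from 197315 to 221329 CPM in WT and from 119491 to 172114 CPM in PIN, lower in all 3 PIN libraries, with a log2 fold change of -0.59 that did not pass (95% confidence interval -1.38 to 0.20). *Tgm4* (log2 fold change -0.16), the peroxidase *Prdx6* (-0.14) and the mitochondrial *mt-Cytb* (-0.16), which were also among the 5 genes of highest CPM, overlapped between the groups. The WT libraries varied more among themselves than the PIN libraries, with a common biological coefficient of variation of 0.455 against 0.280. The libraries WT 1, WT 2 and PIN 2 stood apart. WT 1 held the summed RNA of 11 seminal vesicle genes at 15093 CPM, against 251 and 274 CPM in the other WT libraries and 325 to 1189 CPM in PIN. Outside WT 1 most of this sum was *Serpine2*, at 251 and 273 CPM in WT 2 and WT 3 and 259 to 1075 CPM in PIN. In WT 1 *Serpine2* was at 224 CPM. *Svs2*, by contrast, was at 10429 CPM in WT 1, 0 in WT 2 and WT 3 and at most 1.03 CPM in PIN. WT 1 also held the summed RNA of 10 adipocyte markers at 442 CPM, against 30.3 to 53.7 CPM in the other 5 libraries. WT 2 held the summed RNA of 24 endoplasmic reticulum folding genes at 49710.4 CPM, against 15676 to 22348 CPM elsewhere. PIN 2 differed from both other PIN libraries by more than 4-fold in 86 genes, against 27 genes in PIN 1 and 8 in PIN 3. The library numbers in the labels fall into 3 series, with WT 1 in the first, WT 2 and WT 3 in the second and all PIN libraries in the third, so that series and condition cannot be told apart.

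The first question was which genes differ between early neoplasia and normal prostate. Calls required a log2 fold change beyond 1 in either direction and, in the quasi-likelihood test of edgeR, a p under 0.05 after Benjamini-Hochberg adjustment. Of the 13435 genes tested, 0 passed (0.0%). The lowest adjusted p was 0.0530, shared by *Ugt2b35* and *BC018473*. At an unadjusted p under 0.05, with no limit on the fold change, 776 genes passed, which is 5.78% of those tested. Adding the fold change limit left 250 genes higher in PIN (1.86%) and 70 lower (0.521%). With 1 library left out, higher genes outnumbered lower ones each time, but the size of the split varied. The counts were 532 and 155 without WT 1, 202 and 106 without WT 2, 238 and 169 without WT 3, 121 and 57 without PIN 1, 321 and 92 without PIN 2 and 216 and 35 without PIN 3. All 3 PIN libraries lay above all 3 WT libraries in 875 genes (6.51%) and below them in 894 (6.65%). Both conditions together held for 195 genes higher and 51 lower in PIN. Among the 195, PIN 2 was the lowest PIN library in 127, WT 1 the highest WT library in 123 and WT 2 the lowest WT library in 133. Over all 13435 tested genes these were 4771, 5138 and 5976.

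The 12 genes of lowest p that were higher in PIN were *Ugt2b35*, *BC018473*, *Abcb5*, *AV064505*, *Zdhhc3*, *Trpm3*, *Cckar*, *AL593857.1*, *Pros1*, *Mmp7*, *Anubl1* and *Snx22*. *Ugt2b35*, on chromosome 5 of mm9 from 87429885 to 87442299, belongs to a family of enzymes that attach glucuronic acid to steroids and other small molecules. It had 0.322, 0.288 and 0.647 CPM in WT 1, 2 and 3 and 18.3, 12.6 and 11.4 CPM in PIN 1, 2 and 3. The PIN libraries were close to each other and far above every WT library, and the log2 fold change was 5.04 ± 0.44 (standard error). It passed both thresholds in 7 of the 17 alternative settings of the analysis. *BC018473*, on chromosome 11 from 116613481 to 116620687, had 1 read in the WT libraries together and 692 in the PIN libraries, at 7.56, 9.77 and 5.59 CPM. The ratio was 580.0, with an exact 95% interval from counting error alone of 104 to 22943. It lies wholly within *St6galnac1* on the opposite strand, which had 0 CPM in WT and 0.222 CPM on average in PIN. *Abcb5*, a transporter of the multidrug resistance family, had 0.230, 0 and 0.0340 CPM in WT and 22.2, 3.85 and 13.5 CPM in PIN. *Cckar*, a receptor for cholecystokinin, had 0.184, 0.206 and 0.817 CPM in WT and 10.3, 3.05 and 7.12 CPM in PIN. In both genes PIN 2 was the lowest PIN library and still above all WT libraries.

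**Figure D1:**
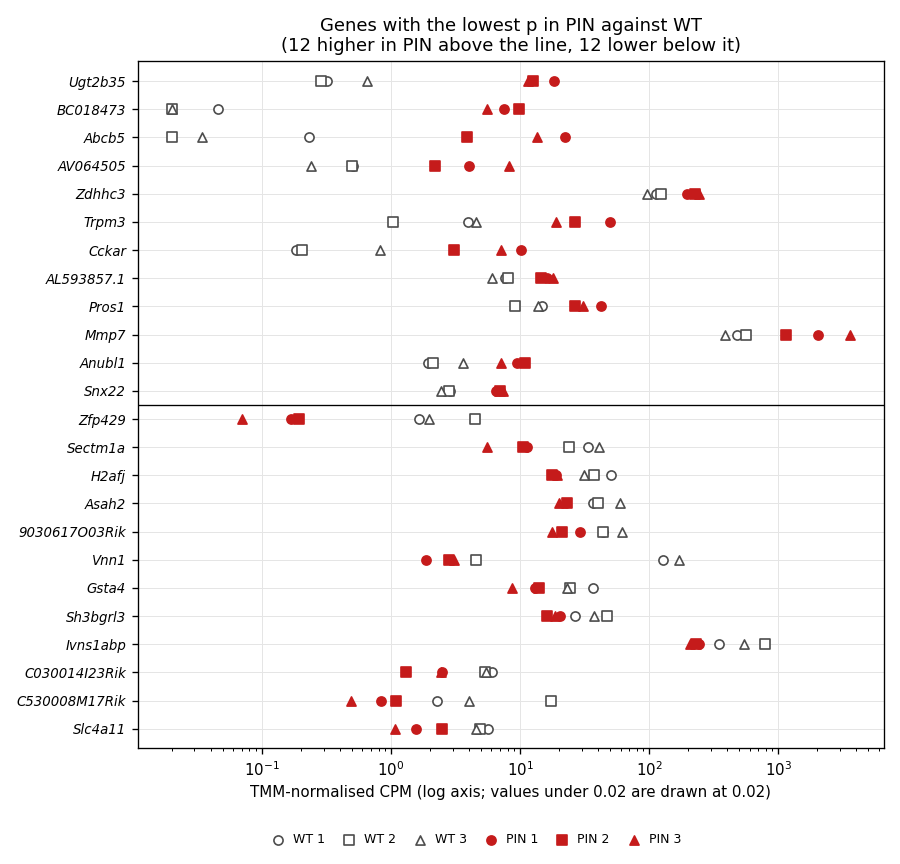
Levels of the 24 genes of lowest p in each library, in TMM-normalised CPM on a log axis, with the 12 genes higher in PIN above the line and the 12 lower in PIN below it. Open symbols are WT and filled symbols are PIN, and no WT and PIN symbols overlap in any row, since this was part of how the genes were chosen.

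*Mmp7*, which encodes the epithelial protease matrilysin and is a known target of β-catenin, was the most abundant of them at 475, 566 and 388 CPM in WT and 2045, 1155 and 3590.5 CPM in PIN. Its log2 fold change was 2.25 (standard error 0.44), and its p was 0.00124 before and 0.825 after adjustment in edgeR's quasi-likelihood test. *AV064505* overlaps *Mmp7* by 3546 bases and *Mmp20* by 5540 bases, both on the opposite strand. It had 0.238 to 0.506 CPM in WT and 4.0, 2.18 and 8.16 CPM in PIN, with PIN 3 highest and PIN 2 lowest as for *Mmp7*. Whether counting used the strand was not given in the sources used here, so reads of a gene and of its partner on the other strand cannot be told apart. The same holds for *Zdhhc3*, a palmitoyltransferase that overlaps *Tgm4* by 1402 bases, for *Snx22*, which overlaps *Ppib*, and for *AL593857.1*, which lies wholly within *Gnas*. These partners were not higher by a like amount in PIN. Mean levels in WT and PIN were 44216 and 39446 CPM for *Tgm4*, 442 and 445 CPM for *Ppib* and 1032 and 957 CPM for *Gnas*. In all, 9 of the 29 genes with the lowest p or the largest fold overlapped another gene. *Trpm3*, a cation channel, had 1.03 to 4.56 CPM in WT and at least 19.0 CPM in PIN. *Pros1*, the anticoagulant protein S, had 14.8, 9.10 and 13.8 CPM in WT and 42.0, 26.8 and 30.7 CPM in PIN. Neither of these overlaps another gene, and their log2 fold changes were 3.32 and 1.4.

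The 12 genes of lowest p that were lower in PIN were *Zfp429*, *Sectm1a*, *H2afj*, *Asah2*, *9030617O03Rik*, *Vnn1*, *Gsta4*, *Sh3bgrl3*, *Ivns1abp*, *C030014I23Rik*, *C530008M17Rik* and *Slc4a11*. *Zfp429*, a zinc finger gene, had 1.66, 4.45 and 1.97 CPM in WT and 0.166, 0.193 and 0.0695 CPM in PIN, a log2 fold change of -4.19 (standard error 0.66). *Sectm1a* had 33.4, 23.9 and 41.1 CPM in WT and 11.3, 10.5 and 5.59 CPM in PIN. *Asah2*, the neutral ceramidase, was at 37.0 to 59.3 CPM in WT and 20.2 to 23 CPM in PIN. The histone variant *H2afj* was at 31.0 to 50.2 CPM in WT and 17.7 to 19.4 CPM in PIN. The PIN libraries lay close together in the last 2 genes, and the spread was mostly among the WT libraries. *Vnn1*, a pantetheinase, differed among the WT libraries themselves, with 127 and 171 CPM in WT 1 and WT 3 but 4.53 CPM in WT 2, near the 1.86 to 3.09 CPM of PIN. Without WT 2 it was the only gene called, with an adjusted p of 0.00328 in edgeR's quasi-likelihood test. *Vnn1*, *Plxna2* and *Bcl2l14* had the largest folds among lower genes of at least 10 CPM on average, and the last 2 rested on WT 2 in the other direction. *Bcl2l14* had 578 CPM in WT 2, against 75.2 and 98.5 CPM in the other WT libraries and 53.0 to 72.5 CPM in PIN.

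Genes of mitosis had higher average levels in PIN, without passing the test singly. In a list of 40 G2/M and spindle genes, all 40 were tested and all had a log2 fold change above 0, where 6487 of all 13435 tested genes did. The list's median log2 fold change was 0.86, against -0.01 over all tested genes, and with 1 library left out it ran from 0.71 without PIN 1 to 1.13 without PIN 2. No member was called at the adjusted threshold, while 7 passed at an unadjusted p under 0.05 with the fold change limit, all higher, beside 1.86% of all tested genes. All PIN libraries lay above all WT libraries in 8 of the 40, beside 6.51% of all tested genes. The summed level of the list was 143, 133 and 128 CPM in WT 1, 2 and 3 and 276, 149 and 282 CPM in PIN 1, 2 and 3. PIN 1 and PIN 3 were thus at about the same level, and PIN 2 lay just above the highest WT library. PIN 2 was the lowest PIN library in 38 of the 40 genes.

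The highest members were *Cenpe*, *Cdc25c* and *Ckap2*. *Cenpe*, a motor protein that ties chromosomes to spindle microtubules, had 1.93, 1.65 and 2.11 CPM in WT and 6.09, 3.66 and 6.70 CPM in PIN. Its log2 fold change was 1.53 (standard error 0.36), with a p of 0.00365 before and 0.825 after adjustment in edgeR's quasi-likelihood test. *Cdc25c*, the phosphatase that starts mitosis, was at 0.165 to 0.506 CPM in WT and 0.546 to 1.39 CPM in PIN, and *Ckap2* at 1.24 to 2.62 CPM in WT and 2.38 to 6.25 CPM in PIN. The proliferation marker *Mki67*, named here after its values were seen, had 18.9, 14.6 and 17.3 CPM in WT and 45.9, 18.2 and 39.6 CPM in PIN, and PIN 2 fell within the WT range. The lowest members were *Ccnf* (log2 fold change 0.14), *Espl1* (0.39) and the topoisomerase *Top2a* (0.47), and in each the groups overlapped. Genes of DNA replication had a smaller median. It was 0.31 over 30 genes, 26 of them above 0, and 0.17 without WT 2. All PIN libraries lay above all WT libraries in 4 of the 30, beside 6.51% of all tested genes, among them *Mcm7*, *Pola1* and *Rfc4*. *Chaf1b*, which loads histones onto new DNA, had the highest log2 fold change of that list at 0.87 (95% confidence interval -0.09 to 1.82), and *Ccne2*, a cyclin of the G1/S step, the lowest at -0.83 (-2.17 to 0.51). PIN 2 did not stand apart here, with a summed level of 239 CPM beside 248 and 283 CPM in PIN 1 and PIN 3 and 174 to 264 CPM in WT.

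**Figure D2:**
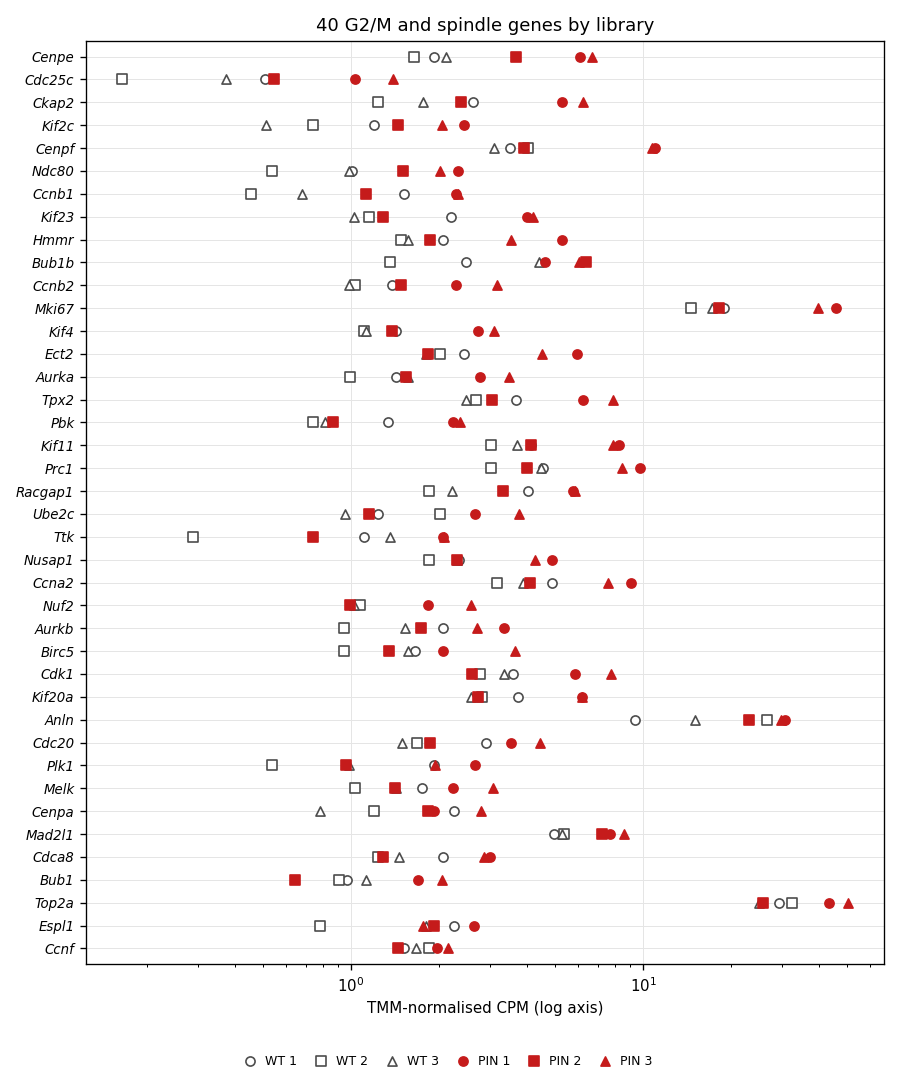
Level of each of the 40 G2/M and spindle genes in the 6 libraries, in TMM-normalised CPM on a log axis, ordered from the highest log2 fold change at the top. The PIN 1 and PIN 3 symbols lie to the right of most WT symbols, while the square of PIN 2 is the lowest PIN symbol in 38 of 40 rows.

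Since the fitted log2 fold changes of these genes had the same sign, although only 8 of the 40 did not overlap between the groups, their promoters were read for the hexamer TTTGAA on either strand, the core of the cell cycle homology region, a known element of G2/M promoters. The RefSeq promoter table of GRCm38.p6, which runs from 250 bases before to 50 after each start site, had a window for 35 of the 40 genes, and 26 of these 35 held the hexamer (74.3%). Of all 27025 genes with a window 20.2% held it, and of the tested genes 14.6%. The 150 bases before the start site are shown for 5 genes, picked after their values were seen. The first 4 hold the hexamer in that stretch, in capitals, and *Cenpe*, the member of lowest p, does not. They run 5′ to 3′ on the gene's own strand, and TTCAAA is the hexamer read from the other strand.
Mki67 (chr7:135716380-135716529, minus strand): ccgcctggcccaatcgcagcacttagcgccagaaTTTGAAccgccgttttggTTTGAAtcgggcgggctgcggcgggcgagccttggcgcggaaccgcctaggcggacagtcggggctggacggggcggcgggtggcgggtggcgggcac
Kif2c (chr4:117178773-117178922, minus strand): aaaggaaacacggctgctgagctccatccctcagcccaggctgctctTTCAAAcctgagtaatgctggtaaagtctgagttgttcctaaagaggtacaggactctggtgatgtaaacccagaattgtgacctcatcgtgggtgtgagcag
Kif11 (chr19:37376232-37376381, plus strand): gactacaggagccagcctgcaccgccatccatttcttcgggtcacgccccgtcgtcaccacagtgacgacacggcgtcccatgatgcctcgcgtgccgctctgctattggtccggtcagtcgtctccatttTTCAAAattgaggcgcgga
Ckap2 (chr8:22185820-22185969, minus strand): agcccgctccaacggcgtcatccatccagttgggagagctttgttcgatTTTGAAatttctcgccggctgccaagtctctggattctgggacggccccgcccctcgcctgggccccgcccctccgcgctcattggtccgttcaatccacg
Cenpe (chr3:135212413-135212562, plus strand): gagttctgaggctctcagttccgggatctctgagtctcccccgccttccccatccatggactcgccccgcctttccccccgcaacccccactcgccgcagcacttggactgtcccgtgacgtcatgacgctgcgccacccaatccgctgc
In *Mki67* the hexamer starts 116 and 98 bases before the start site, in *Kif2c* 103, in *Ckap2* 101 and in *Kif11* 19. *Kif2c* and *Kif11*, both spindle motor proteins, had all PIN libraries above all WT libraries, with 0.510 to 1.20 CPM in WT and 1.45 to 2.43 CPM in PIN for *Kif2c* and 3.01 to 4.14 CPM against 4.14 to 8.26 CPM for *Kif11*, where PIN 2 and WT 1 were equal to 3 digits. A match is a description of the letters and does not show that a factor binds there.

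Tissue kallikreins are secreted serine proteases of the family that holds human prostate-specific antigen. Of the 24 kallikrein genes listed, all were in the table and 4 passed the filter on low counts, *Klk1b24*, *Klk1b21*, *Klk1b27* and *Klk1b8*. A gene at 0 in WT can pass this filter only through its PIN libraries, so the count of higher genes among these 4 shows nothing by itself. *Klk1b24* had 0.138, 0 and 0 CPM in WT, 3 reads in all, and 32.3, 0.450 and 21.1 CPM in PIN, a ratio of 445 with an exact 95% interval from counting error of 152 to 2159. *Klk1b21*, *Klk1b27* and *Klk1b8* had 0 reads in all WT libraries. Against the level of 3 reads over the group, they were at least 79.8-fold, 92.9-fold and 30.6-fold higher on average in PIN. The 4 genes shared a pattern among the PIN libraries, with PIN 1 and PIN 3 high and PIN 2 low, and *Klk1b8* had a single read in PIN 2. The transcripts of the 4 genes are from 87.0% to 94.1% identical in GENCODE, so that reads may be split between them or dropped, and their single values are uncertain. Their promoter windows are from 84.0% to 97.7% identical. The hexamer AGAACA of androgen response elements, read on either strand, was in 1 of the 4 windows, beside 21.3% of all windows and 14.6% of those of tested genes. Of the 24 kallikrein windows 7 held it (29.2%). The full palindromic element was in none of the 24 kallikrein windows and in 3 of all 27025.

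**Figure D3:**
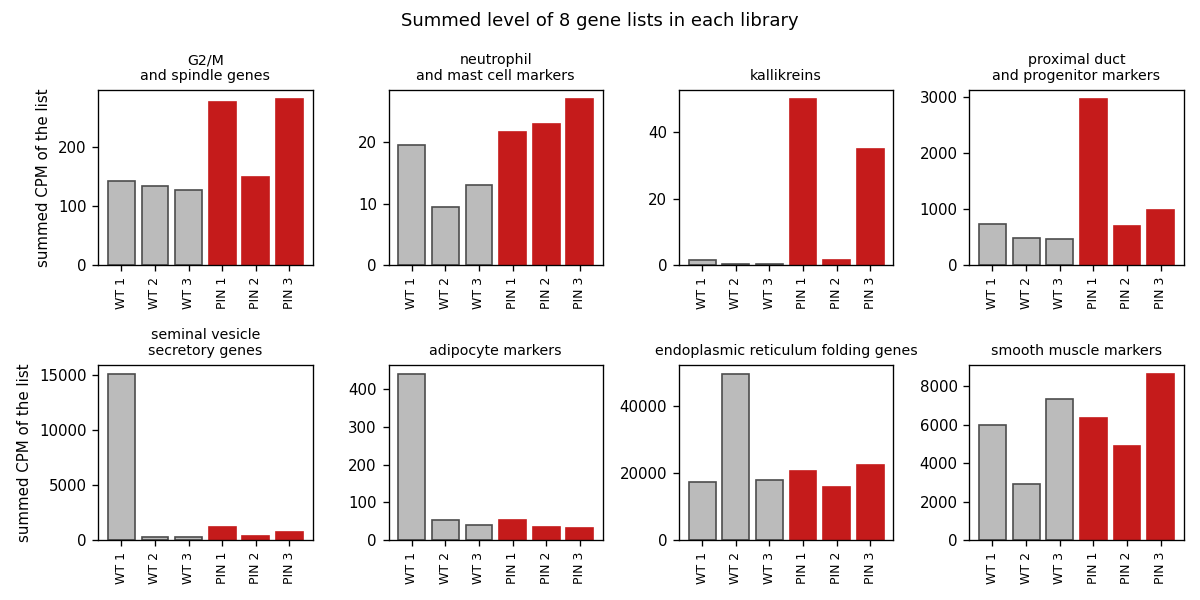
Summed CPM of 8 gene lists in each of the 6 libraries, WT in grey and PIN in red, each panel on its own linear axis from 0. The kallikrein and G2/M panels show PIN 2 apart from PIN 1 and PIN 3, and the seminal vesicle, adipocyte and endoplasmic reticulum panels show WT 1 or WT 2 apart from all other libraries.

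The 3 higher genes of largest fold among those of at least 10 CPM on average shared this pattern. *Spink11*, a protease inhibitor, had 0.506, 0 and 0 CPM in WT and 74.4, 2.60 and 32.0 CPM in PIN. *Atp13a4* had 1.10, 0.0412 and 0.0340 CPM in WT and 112, 2.79 and 45.7 CPM in PIN. *Psca*, a surface antigen of prostate and urothelial cells, had 4.05, 0 and 0.136 CPM in WT and 132, 6.26 and 61.7 CPM in PIN. In all 3 genes WT 1 was the highest WT library, and PIN 2 was far below PIN 1.

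Some secreted products of the prostate known to differ between its lobes also varied among the libraries of a group. *Sbp* and *Spink3*, both known as products of the ventral lobe, had 8886 and 3346 CPM in WT 1, but at most 0.0824 CPM in WT 2 and WT 3. In PIN 1, 2 and 3 *Sbp* was at 7.42, 0.321 and 13.3 CPM and *Spink3* at 51.8, 0.0321 and 8.54 CPM. *Msmb*, a β-microseminoprotein made by luminal cells, was at 376, 0.247 and 1.46 CPM in WT and 2106, 17.8 and 152 CPM in PIN. These 3 genes thus split the libraries into WT 1, PIN 1 and PIN 3 above WT 2, WT 3 and PIN 2, across both conditions. *Pbsn* and *Defb50*, of the same list, did not follow this split. *Sbp* and *Spink3* were far higher in WT 1 than in any PIN library. *Klk1b24* and *Spink11* went the other way, at 0.138 and 0.506 CPM in WT 1. The summed level of 8 vas deferens and epididymis markers, of which 1 was tested, made the same split. It was 16.7, 0.453 and 0.374 CPM in WT 1, 2 and 3 and 10.3, 0.835 and 32.2 CPM in PIN 1, 2 and 3. The labels give no lobe and name no adjoining tissue. The part of either in the values of the kallikreins, *Psca*, *Spink11* and *Atp13a4* was not tested. Of the 16 luminal secretory products, 2 passed at an unadjusted p with the fold change limit, both higher in PIN and with no overlap, beside 1.86% of all tested genes. The list's median was -0.12, with 7 members above 0, and 3.10 without WT 1. Its members *Pate4* and *Spinkl* are also on the seminal vesicle list, whose summed level was highest in WT 1. The 2 genes were *Mmp7* and *Defb50*, a β-defensin at 273, 84.9 and 84.2 CPM in WT and 2663, 439.6 and 810.3 CPM in PIN.

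Markers of proximal duct and progenitor cells were next. Of 15 listed genes 14 were tested, 13 had a log2 fold change above 0, and the median was 0.72. At an unadjusted p with the fold change limit 5 of the 14 passed, all higher, where 1.86% of all tested genes were higher and 0.521% lower. Among them were *Psca*, *Ly6a*, *Aldh1a1* and *Krt4*. *Ly6a*, the stem cell antigen Sca-1, had 36.1, 20.6 and 25.1 CPM in WT and 433, 65.8 and 131 CPM in PIN, a log2 fold change of 2.95 (standard error 0.68). *Aldh1a1*, which makes retinoic acid, had 87.0, 20.4 and 76.3 CPM in WT and 354, 139.9 and 231 CPM in PIN. Both had all PIN libraries above all WT libraries. *Krt4* overlapped between the groups and was carried by PIN 1, with 32.9 CPM there, against 2.67 and 5.28 CPM in the other PIN libraries and 1.19 to 4.65 CPM in WT. The median of the list fell to 0.13 without PIN 1 and was 1.81 without WT 1. *Aqp3* had the lowest log2 fold change, -2.1 (95% confidence interval -5.91 to 1.72).

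Basal and luminal keratins did not separate the groups. The basal keratins *Krt5* and *Krt14* had log2 fold changes of 0.70 (95% confidence interval -0.25 to 1.66) and -0.49 (-1.78 to 0.80). *Trp63*, the basal transcription factor p63, was a little higher in all PIN libraries, at 35.4, 37.1 and 39.6 CPM beside 23.7, 27.5 and 33.6 CPM in WT. Over 16 tested basal genes the median was 0.33, and only *Krt15* passed at an unadjusted p with the fold change limit (1.86% of all tested genes were higher and 0.521% lower), at 53.3 to 93.6 CPM in WT and 63.6 to 204 CPM in PIN. The luminal keratins *Krt8*, *Krt18* and *Krt19* had log2 fold changes of -1.28, -0.92 and -1.30. These rested on WT 2, where *Krt8* was at 887 CPM, while WT 1 and WT 3, at 184 and 195 CPM, lay within the 139 to 225 CPM of PIN. The list of 12 luminal keratins and regulators had a median of -0.35, and of 0.06 without WT 2.

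The transgene is not a row of this mouse table, so the counts do not check its expression. *Osr1*, whose promoter drives the Cre, was at 1.57 to 3.86 CPM in WT and 2.73 to 3.02 CPM in PIN. Of 20 genes of the androgen response 19 were tested, with a median of 0.10, and their directions were mixed, with 11 above 0. Those with all PIN libraries above all WT libraries were *Fkbp5*, a co-chaperone that androgens induce, and *Tsc22d3*, which is 2 of 19 beside 6.51% of all tested genes. *Fkbp5* had 76.2, 94.1 and 48.3 CPM in WT and 419.7, 105 and 222 CPM in PIN, a log2 fold change of 1.77 (standard error 0.50). *Tsc22d3*, also induced by glucocorticoids, had 27.0 to 38.4 CPM in WT and 46.3 to 51.8 CPM in PIN. *Spdef*, a transcription factor of luminal secretory cells, was the only gene of the list below WT in all PIN libraries, beside 6.65% of all tested genes, with 59.0, 65.3 and 42.4 CPM in WT and 24.6, 33.0 and 31.5 CPM in PIN. *Pbsn*, the classic androgen-induced gene probasin, had 6095, 21788 and 11855 CPM in WT and 6188, 11522 and 12074 CPM in PIN, so the spread among WT libraries was wider than the difference of the means. *Homer2* and *Acsl3* were also among the lowest members and overlapped between the groups, at log2 fold changes of -0.74 and -0.50.

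In the IGF1 axis the ligand had the highest log2 fold change. *Igf1*, on chromosome 10 from 87321010 to 87399792, had 33.1, 11.9 and 17.8 CPM in WT and 52.8, 51.2 and 47.1 CPM in PIN. The PIN libraries were nearly equal, and all lay above the highest WT library. The log2 fold change was 1.27 (95% confidence interval 0.43 to 2.11), with a p of 0.00897 before and 0.825 after adjustment in edgeR's quasi-likelihood test. Its receptor *Igf1r* had 46.6 to 60.6 CPM in WT and 44.3 to 85.1 CPM in PIN, and its interval ran from -0.41 to 0.81. *Mapk13*, a p38 kinase, had an interval from -0.46 to 1.62. Among the binding proteins that hold IGF1 in the tissue, *Igfbp3* was at 33.1, 6.51 and 33.8 CPM in WT and 47.5, 49.8 and 34.4 CPM in PIN, and *Igfbp5* overlapped. *Igfbp6* was lower in all PIN libraries, at 11.6 to 18.6 CPM beside 21.3 to 27.9 CPM. The kinases *Akt1* and *Akt2* were lower by small amounts in all PIN libraries, with log2 fold changes of -0.39 and -0.31. Over the 29 tested genes of the axis the median was 0.06, 3 lay above WT in all PIN libraries and 5 below, where 6.51% and 6.65% of all tested genes did, and *Igf1* alone passed at an unadjusted p with the fold change limit, which is 1 of 29 where 1.86% of all tested genes were higher and 0.521% lower.

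Among Wnt genes, the ligands *Wnt4* and *Wnt5a* had the highest log2 fold changes of the core pathway. *Wnt4* had 8.32, 3.05 and 6.57 CPM in WT and 53.6, 9.22 and 12 CPM in PIN, above all WT libraries but led by PIN 1. Its log2 fold change was 2.06 (95% confidence interval 0.35 to 3.77). *Wnt5a*, a ligand that mostly acts without β-catenin, was at 13.1 to 23.5 CPM in WT and 26 to 49.6 CPM in PIN, a log2 fold change of 0.89 (0.14 to 1.64). Of the 21 core genes tested 4 lay above WT in all PIN libraries, the others being *Wls* and *Sfrp2*, and 0 below, where 6.51% and 6.65% of all tested genes did. The β-catenin gene *Ctnnb1* was at 431, 529 and 440.3 CPM in WT and 483, 386 and 394 CPM in PIN, and the interval of its log2 fold change ran from -0.64 to 0.34. *Tcf7l2*, a transcription factor that binds β-catenin and is also called TCF4 as a protein, had an interval that includes 0 (-0.20 to 0.63). The row *Tcf4* is a different gene, which encodes an E protein, and its interval also includes 0 (-0.06 to 1.33). Among the targets, *Axin2*, a feedback inhibitor widely used as a readout of β-catenin, had 94.4, 137 and 133 CPM in WT and 118, 153 and 78.8 CPM in PIN, with an interval from -0.71 to 0.59. The intervals of *Ccnd1* (-1.01 to 0.75) and *Myc* (-0.66 to 0.20) also include 0. *Lgr5*, a target that marks stem cells, was at 26.9 to 54.5 CPM in WT and 14.7 to 37.3 CPM in PIN (-1.92 to 0.12). Of 24 tested targets only *Mmp7* passed at an unadjusted p with the fold change limit, where 1.86% of all tested genes were higher and 0.521% lower. The median of the targets was 0.25, and -0.01 without WT 2, where the secreted inhibitor *Wif1* (9.10 CPM, against 55.2 to 104 CPM elsewhere) and *Apcdd1* (3.13 CPM, against 14.7 to 31.3 CPM) were lowest.

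**Figure D4:**
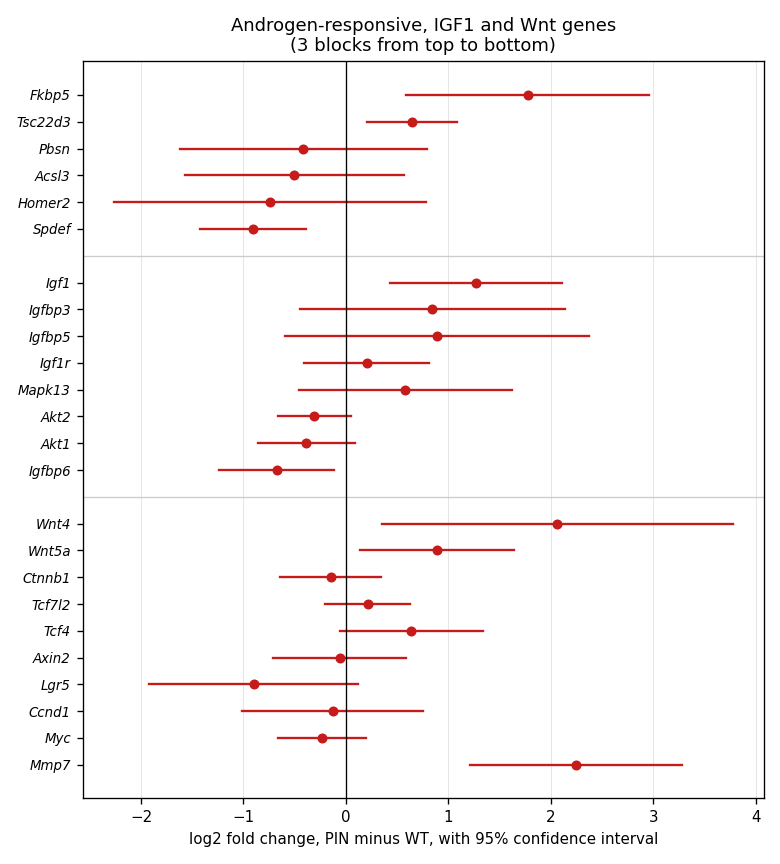
Log2 fold change of PIN over WT with its 95% confidence interval from edgeR's quasi-likelihood fit, for androgen-responsive genes (top block), the IGF1 axis (middle block) and the Wnt pathway (bottom block). The intervals of *Fkbp5*, *Tsc22d3*, *Igf1*, *Wnt4*, *Wnt5a* and *Mmp7* lie above 0 and those of *Spdef* and *Igfbp6* below 0, before any adjustment for the number of genes tested.

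The mast cell genes *Cpa3*, *Cma1* and *Mcpt4* were higher in all 3 PIN libraries than in any WT library, as were 6.51% of all tested genes. Of 12 neutrophil and mast cell markers 5 passed the filter, all of them known from mast cells, and each had a log2 fold change above 0, with a median of 0.91. *Cpa3*, the mast cell carboxypeptidase, had 2.39, 2.43 and 2.11 CPM in WT and 5.83, 3.79 and 6.67 CPM in PIN, a log2 fold change of 1.23 (95% confidence interval 0.43 to 2.03). The proteases *Cma1* (1.15 to 1.75 CPM in WT, 2.47 to 3.26 CPM in PIN) and *Mcpt4* (2.04 to 2.99 CPM, 3.73 to 6.11 CPM) also had no overlap. *Tpsb2* and *Kit*, at log2 fold changes of 0.57 and 0.47, overlapped. The neutrophil markers *S100a8*, *Mpo* and *Elane* were at or near 0 in all 6 libraries.

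Of the 24 interferon response genes tested, 0 had PIN libraries all above or all below WT, beside 6.51% and 6.65% of all tested genes, and the highest log2 fold changes, of *Usp18* (2.07), *Oas1a* (2.06) and *Mx2* (1.87), came from PIN 2. *Usp18* had 23.7 CPM in PIN 2, against 2.23 and 3.75 CPM in the other PIN libraries and 0.824 to 4.09 CPM in WT. The list's median was 0.35, and -0.26 without PIN 2. Macrophage markers had a median of 0.22 over 12 genes, and of -0.34 without PIN 2. Of these only *Cd163* passed at an unadjusted p with the fold change limit (1.86% of all tested genes were higher), at 1.94 to 12.5 CPM in WT and 12.4 to 26.8 CPM in PIN. Smooth muscle (median 0.29), fibroblast and matrix (0.23) and endothelial genes (0.45) had no member in which PIN and WT did not overlap, beside 13.2% of all tested genes, and WT 2 had the lowest summed level of each list among the 6 libraries. Without WT 2 these medians were -0.02, -0.07 and -0.02.

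Among enzymes of conjugation, 0 members were called in either direction. *Gsta3*, a glutathione transferase, had 5.98, 2.47 and 7.32 CPM in WT and 29.1, 16.6 and 20.5 CPM in PIN, a log2 fold change of 2.07 (standard error 0.43). *Gsta4*, of the same family and known to clear products of lipid peroxidation, had 37.0, 24.2 and 23 CPM in WT and 13.1, 14 and 8.68 CPM in PIN, a log2 fold change of -1.23 (standard error 0.28). The groups were apart in both genes. *Aldh1a7*, next to *Aldh1a1* on chromosome 19, had 5.31 to 18.1 CPM in WT and 24.3 to 46.5 CPM in PIN. The list of 16 tested genes had a median of 0.25, with 2 higher and 1 lower at an unadjusted p with the fold change limit, where 1.86% and 0.521% of all tested genes were. Among 17 tested tumor suppressors and cell cycle inhibitors the median was -0.08. *Brca2*, which repairs DNA breaks, alone passed in the same way, beside 1.86% of all tested genes, with 4.23, 1.65 and 5.44 CPM in WT and 8.36, 8.48 and 7.74 CPM in PIN. *Brca1* was at 1.4 to 3.54 CPM in WT and 3.21 to 5.13 CPM in PIN and overlapped.

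Genes of protein folding in the endoplasmic reticulum had log2 fold changes below 0 in all 24 members, with a median of -0.47, and 0.02 without WT 2. *Ddit3*, a transcription factor of the stress response, had 201 CPM in WT 2, against 11.8 to 21.5 CPM in the other 5 libraries. *Creld2* alone had all PIN libraries below all WT libraries, beside 6.65% of all tested genes, at 190.1 to 246 CPM in PIN beside 305, 1089 and 284 CPM in WT. Genes of the JAK-STAT and IL6 family (median 0.11 over 22 genes), genes of cholesterol and fatty acid synthesis (-0.10 over 19) and immediate early genes (-0.12 over 14) had medians near that of all tested genes.

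**Figure D5:**
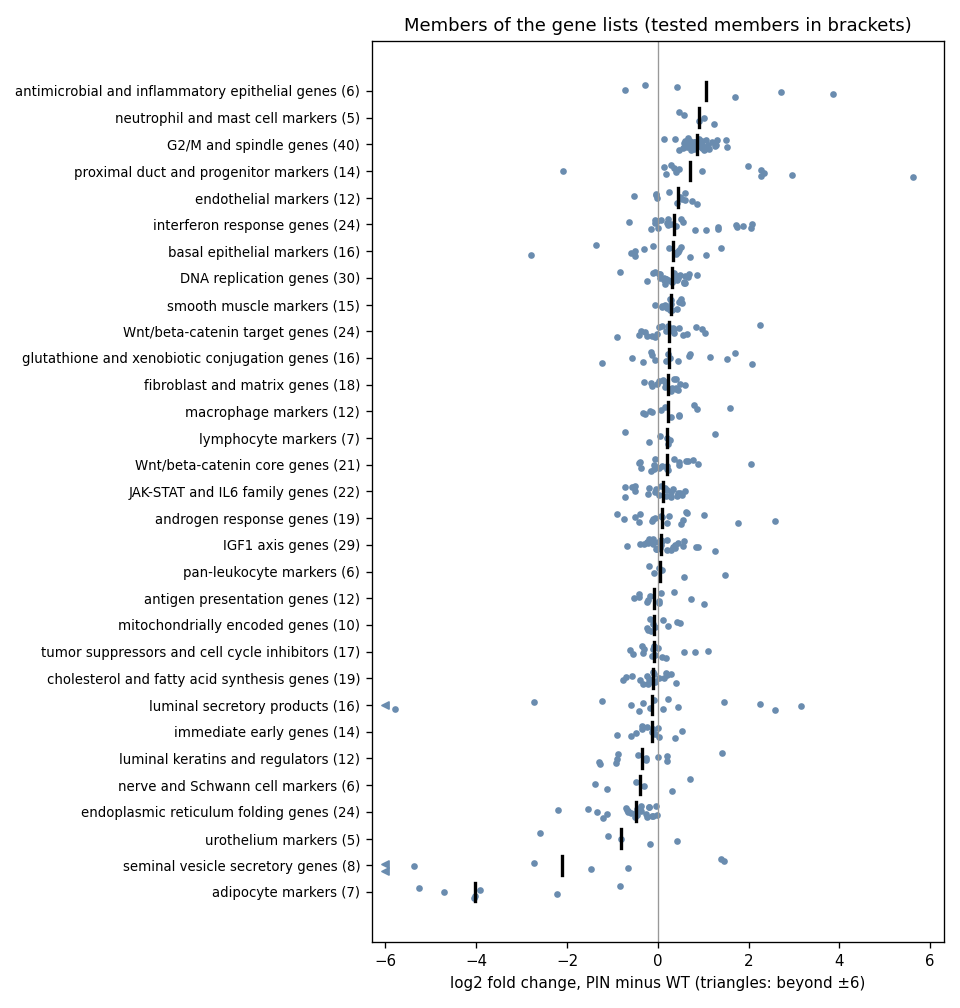
Log2 fold change of PIN over WT for the tested members of each list with at least 5 tested genes, with a black bar at the list's median and triangles for values beyond the axis. The G2/M genes lie all to the right of 0 and the endoplasmic reticulum genes all to the left, and the latter's median is 0.02 without WT 2.

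Genes near the engineered loci were counted, since mice that carry them also carry the DNA around them on a mixed background. Within 10 Mb on either side of Rosa26 (*Gt(ROSA)26Sor*, chromosome 6 from 113017422 to 113027327), 9 of 101 tested genes had no overlap between PIN and WT (8.91%), and around *Osr1* (chromosome 12 from 9581248 to 9588305) 8 of 51 (15.7%). Over all tested genes the share was 13.2%. Near Rosa26, *Anubl1*, *Tuba8* and *B4galnt3* passed at an unadjusted p with the fold change limit, which is 3 of 101, and near *Osr1* 0 of 51 did, beside 320 of all 13435 tested genes (1.86% higher and 0.521% lower). *Anubl1* had 1.93, 2.1 and 3.61 CPM in WT and 9.46, 11 and 7.12 CPM in PIN.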

How the data were processed

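RNA of mouse prostate was sequenced as paired reads after removal of ribosomal RNA. Per the labels and the submitters' processing notes, the authors trimmed the reads with cutadapt 1.9.1, aligned them to mm9 with HISAT2 2.1.0 and counted them per gene with HTSeq 0.6.1. The deposited values are raw counts for 27036 genes, and the strand setting of the counting is not given in the sources used here. Genes above 1 CPM in at least 2 of the 6 libraries were tested in edgeR 4.0.16 (R 4.3.3) with TMM scaling and the quasi-likelihood F-test, with 4 residual degrees of freedom and Benjamini-Hochberg adjustment. Exact permutation of 3 against 3 libraries cannot give a p below 0.1, so none was run. CPM and log2 fold changes were computed from the counts, and confidence intervals cover 95%.

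The genes named are the 12 of lowest p and the 3 of largest fold in each direction (unadjusted p under 0.05, absolute log2 fold change above 1, no overlap between groups), the genes the study names for its axes, the highest and lowest members of each list, and the 5 most abundant genes. Some genes that this rule names are not reported here. Members and lists were chosen with earlier results of these data known. Where a gene lay outside the rule, it was chosen after its values were seen, as were all genes named for having no overlap between groups. A floor of 3 counts over the group stands for 0, and exact intervals cover counting error only. Counts of 13435 genes were simulated with 4-fold changes in a random subset of them. Of the changed genes tested, 194 of 194 were called at a coefficient of variation of 0.2 and 134 of 197 at 0.4, with 7 others called at the latter. Alternatives were upper-quartile scaling, DESeq2 1.42.0, limma 3.58.1 (trend and voom), other edgeR tests and filters, all 8 libraries, a replicate block, leaving the most abundant gene out of the scaling and leaving out each library.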

Additional observations from a re-analysis of the deposited data

How the results depend on the processing

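The count of called genes was 0 in the main fit given above. The study itself reported differentially expressed genes between PIN and WT, so this 0 is not its count. The count was 80 with DESeq2 (67 higher, 13 lower) and 44 with edgeR's likelihood ratio test. It was 2 each with limma-trend, the newer quasi-likelihood fit, no filter on low counts and filterByExpr. With upper-quartile scaling, limma-voom, all 8 libraries or the most abundant gene left out it was 0. Leaving out 1 library gave from 0 to 1 called genes, *Vnn1* without WT 2 and *Gm9000* without PIN 2. The count at an unadjusted p with the fold change limit, 320 in the main fit, was 651 with no filter, where more genes were tested, and ran from 178 without PIN 1 to 687 without WT 1.

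With the replicate number as a block, 12 genes were called, all higher in PIN, and 374 passed at an unadjusted p. Nothing in the labels says that the numbers pair the samples. The residuals of same-numbered libraries correlated at 0.16, -0.0043 and -0.019, and only library 1 of each group correlated best with its own number. Residuals around the mean of so few libraries cannot decide whether the samples were paired.

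Of the genes named, the direction turned for *Axin2* with upper-quartile scaling (0.014), for *Sbp* with limma-voom (0.91) and the block (1.17), and for *Spink3* with limma-trend (0.47), limma-voom (1.84) and the block (0.053). With 1 library left out, the log2 fold change ran from -9.56 to 7.37 for *Sbp*, from -8.03 to 12.18 for *Spink3* and from -0.57 to 9.75 for *Msmb*. It ran from -0.76 to 0.15 for *Pbsn*, -0.30 to 0.16 for *Axin2*, -0.093 to 0.40 for *Igf1r*, -0.44 to 0.12 for *Ccnd1*, -0.13 to 0.52 for *Osr1*, -1.32 to 0.17 for *Homer2*, -0.86 to 0.032 for *Acsl3* and -0.84 to 0.44 for *Krt14*. It ran from -1.70 to 0.12 for *Krt19*, -2.68 to 0.11 for *Ddit3*, -0.33 to 0.0093 for *Tgm4*, -0.24 to 0.040 for *Prdx6* and -0.41 to 0.24 for *mt-Cytb*. The causes were not tested. With 3 libraries a group and a coefficient of variation of 0.455 among the WT libraries, changes of 4-fold and less can be missed.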
